A study of Brassica rapa with 5 samples.

Results

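The genes described here are low-level transcripts of Brassica rapa leaves that stood higher under iron (Fe) deficiency than under normal nutrient supply. They were chosen by value: a mean over the 5 conditions of under 5 TPM (tags scaled to the clean tags of a library, a unit that is not scaled to transcript length) and a log2(TPM + 1) under Fe deficiency at least 1 above normal supply. The rule gave 255 of the 29183 genes listed in any condition, and 18376 of the 29183 had a mean under 5 TPM. Since Fe deficiency and normal supply chose the genes, their values in these conditions are a description and carry no test.

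The plants were accession R-o-18, grown hydroponically for 14 days in normal solution (3 µM Fe, 2 µM Zn, no Cd) and then for 7 days under Fe deficiency (0.05 µM Fe), zinc deficiency (0.005 µM Zn), zinc excess (50 µM Zn), cadmium exposure (1 µM Cd) or normal supply. The first pair of expanded leaves was taken, with 3 replicates per condition and 3 plants in each. The study counts tags in 15 digital gene expression libraries, and each condition was deposited as the mean of its 3 libraries, so each condition is 1 sample. Library totals recovered from the deposited values lay between 5575675 and 5997201 clean tags, of which 54.0% (Cd exposure) to 58.6% (Fe deficiency) fell in genes. At this depth 1 TPM is about 17 tags over a condition, and for a gene at 0 a floor of 3 tags over the 3 libraries is used, which is 0.170 to 0.174 TPM. All intervals below are exact 95% Poisson intervals of the tags summed over a condition and cover counting error only. In whole leaves, fewer cells of a type and less RNA per cell cannot be told apart.

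Iron is a cofactor of photosynthesis, respiration and haem synthesis. Plants short of Fe switch on genes for its uptake and redistribution, and much of this control is transcriptional, so some of the genes concerned are nearly silent in well-fed plants. Zinc is also an essential cofactor and shares some transporters with Fe, while Cd is toxic and can enter through the same routes. The deposited tables give gene identifiers without names, and the RefSeq table used here (assembly CAAS_Brap_v3.01) lists none of the 255 identifiers. No function is therefore given to any gene below, and the leaf label was not checked against marker genes.

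The 255 genes had a median of 4.81 TPM under Fe deficiency (range 1.02 to 11.7), 2.16 TPM under Zn deficiency (0 to 9.79), 1.61 TPM under Zn excess (0 to 15.4), 0.981 TPM under Cd exposure (0 to 5.38) and 1.20 TPM under normal supply (0 to 3.78). Fe deficiency is high and normal supply is low by the choice of genes. Summed, they made up 1272 TPM under Fe deficiency and 343 TPM under normal supply, 5.14% and 1.63% of all tags in genes under 5 TPM. In the other conditions, which entered the rule only through the mean, the sums were 637 TPM under Zn deficiency, 577 TPM under Zn excess and 306 TPM under Cd exposure. Fe deficiency was the highest of the 5 conditions for 224 genes, Zn excess for 21 and Zn deficiency for 10.

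**Figure D1:**
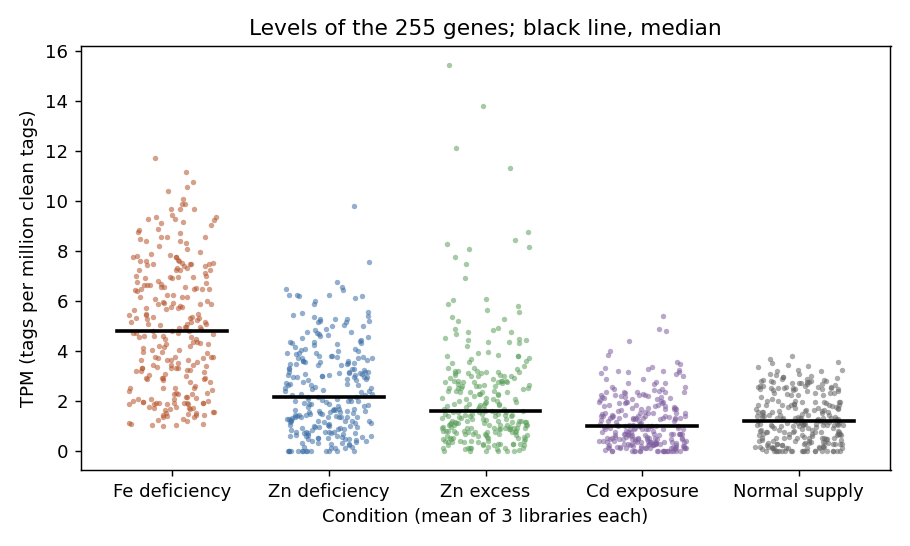
TPM of each of the 255 genes (1 point each) in the 5 conditions, each the mean of 3 libraries, with the median as a black line. The median is 4.81 TPM under Fe deficiency and 1.20 TPM under normal supply, and the highest points lie under Zn excess, up to 15.4 TPM.

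The rule called 255 of 18376 genes under 5 TPM higher, or 1.39%, and 61 genes, or 0.332%, were lower by the same amount. Just inside the limit lay Bra017508 (8.39 TPM under Fe deficiency and 3.69 TPM under normal supply) and Bra020179 (3.65 and 1.32 TPM). Just outside it lay Bra014277 (1.47 and 0.237 TPM) and Bra030920 (2.15 and 0.577 TPM). All of these differences print as 1.00 on the log2 scale, so the limit separates genes that are alike. General scaling also moves the list: genes of at least 5 TPM were 0.17 higher in the median under Fe deficiency, and size factors, which take out 0.18, left 163 genes in place of 255.

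The 3 libraries behind each mean could be recovered for many genes, because the deposited tag number and TPM weight them differently. Under Fe deficiency 185 of the 255 genes had exactly 1 solution in whole tags per library. Of these, 179 had tags in all 3 libraries and 6 in 2 libraries, and the library with the most tags held a median of 43.8% of the depth-scaled tags. In 9 genes it held over 66.7%. For 175 genes the tags were resolved under both Fe deficiency and normal supply, and in 150 of these every Fe deficiency library lay above every normal library. Among all genes under 5 TPM resolved in this way the share was 7.78%, and nothing is read from the comparison, since the same contrast chose the genes.

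No tag at all was found under normal supply for 21 of the 255 genes. The same held for 3351 of all 18376 genes under 5 TPM, so having no tag there was not particular to the 255. The 21 genes split into a set of 11 and a set of 10 by their level under Zn excess, with nothing in between, a split seen after the values were known. The 11 genes had 1.21 to 15.4 TPM under Zn excess (median 7.47) and 1.43 to 10.8 TPM under Fe deficiency (median 4.29). All 11 were at 0 under Zn deficiency, and 9 of them were also at 0 under Cd exposure. The other 10 genes reached at most 0.402 TPM under Zn excess, 2 of them being at 0 there, and all had some tags under Zn deficiency (0.116 to 1.51 TPM) and Cd exposure (0.114 to 0.346 TPM). Under Fe deficiency these 10 lay between 1.02 and 3.04 TPM. Where tags per library were solved, 20 genes had no tag under normal supply, and the list chosen again without 1 normal supply library had 38 (lowest total left out) or 36 (middle total left out).

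**Figure D2:**
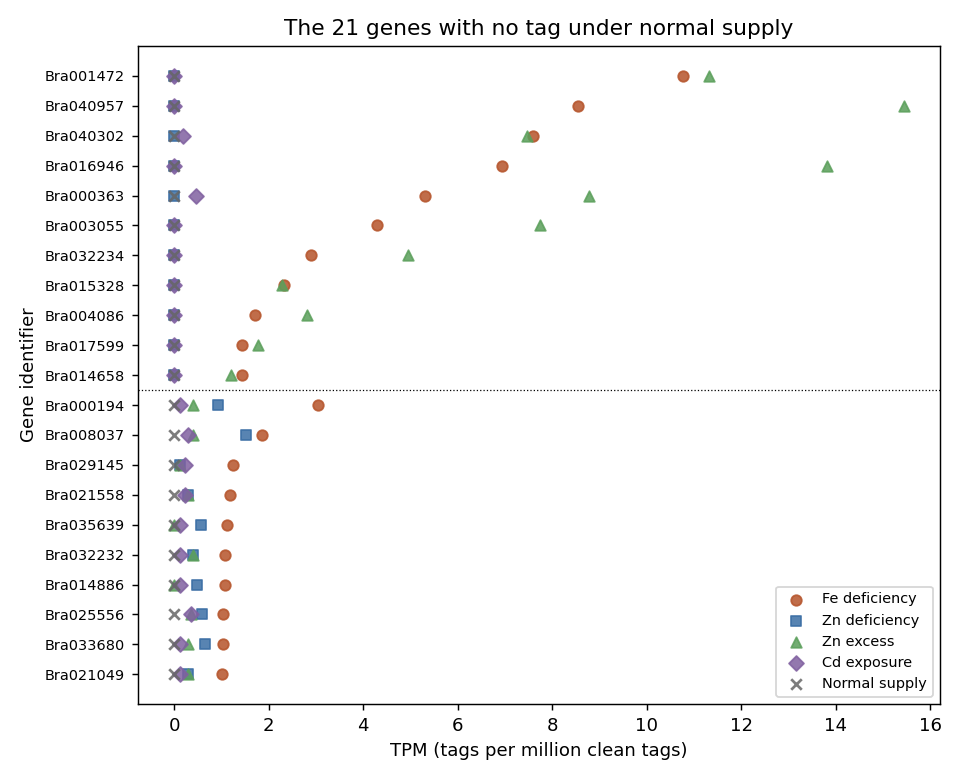
TPM in the 5 conditions (symbols) of the 21 genes with no tag under normal supply, 1 gene per row, mean of 3 libraries. Above the dotted line are the 11 genes with at least 1.21 TPM under Zn excess, all at 0 under Zn deficiency, and below it the 10 genes with at most 0.402 TPM under Zn excess.

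Bra001472, with the largest difference of the 255 genes, had 10.8 TPM under Fe deficiency (188 tags, interval 9.21 to 12.3) and 11.3 TPM under Zn excess (197 tags, interval 9.79 to 13.0). It had no tag in the 9 libraries of Zn deficiency, Cd exposure and normal supply. Set against that floor of 3 tags over a condition, and leaving out the counting error of the higher value here and below, it was at least 62.8-fold higher under Fe deficiency than under normal supply and at least 65.0-fold higher under Zn excess than under Zn deficiency. The tags of Bra001472 were thus found in 2 of 5 conditions, with similar means in both. Its tags per library were not resolved in either, so the spread between replicates behind these means is not known.

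Bra040957 had 8.55 TPM under Fe deficiency (150 tags) and 15.4 TPM under Zn excess (269 tags, interval 13.7 to 17.4), and again no tag in the other 3 conditions. It was at least 49.8-fold higher under Fe deficiency than under normal supply, and at least 88.7-fold higher under Zn excess than under Zn deficiency and 89.0-fold higher than under Cd exposure. Here the Zn excess value lay above the Fe deficiency value by more than counting error. Bra016946 showed the same order, with 6.93 TPM (5.65 to 8.15) under Fe deficiency and 13.8 TPM (12.2 to 15.7) under Zn excess, and no tag elsewhere. Single Fe deficiency libraries ran from 2.17 to 14.1 TPM in Bra040957 and from 1.67 to 12.6 TPM in Bra016946. The Zn excess libraries of both genes were not resolved, so this order is not shown beyond the spread between replicates. Over the 11 genes, the Zn excess value was 0.844 to 1.99 times the Fe deficiency value, and it was the higher one in 8.

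The 2 genes of the 11 that had tags under Cd exposure were Bra000363 and Bra040302, named after their values were seen. Bra000363 had 5.31 TPM under Fe deficiency, 0 TPM under Zn deficiency, 8.78 TPM under Zn excess, 0.463 TPM under Cd exposure (8 tags) and 0 under normal supply. Bra040302 had 7.59, 0, 7.47, 0.173 (3 tags) and 0 TPM in the same conditions. In both, all Cd exposure tags came from 1 library, the one with the middle total, while the other 2 Cd libraries had none. Both genes were thus above 0 under Cd exposure in 1 of 3 replicates.

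The replicates of Fe deficiency differed in these genes. In 10 of the 11 the tags of each Fe deficiency library could be solved, and in 9 of the 10 the library with the highest total had the fewest. Bra040957 had 13, 84 and 53 tags in the Fe deficiency libraries of highest, middle and lowest total, Bra016946 had 10, 39 and 71, and Bra040302 had 20, 44 and 68. In Bra015328, also named after its values were seen, the numbers were 2, 14 and 24. The first library therefore held on average 13.5% of the depth-scaled tags of the 10 genes, the second 36.9% and the last 49.6%. In the 165 solved genes with tags under normal supply the shares were 35.4%, 35% and 29.6%, so the low first library was not a property of the 255 genes at large. In the 10 genes of the other set without tags under normal supply they were 36.5%, 41.0% and 22.6%. The 3 replicates pooled different plants, and what set 1 replicate lower for these genes was not tested.

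**Figure D3:**
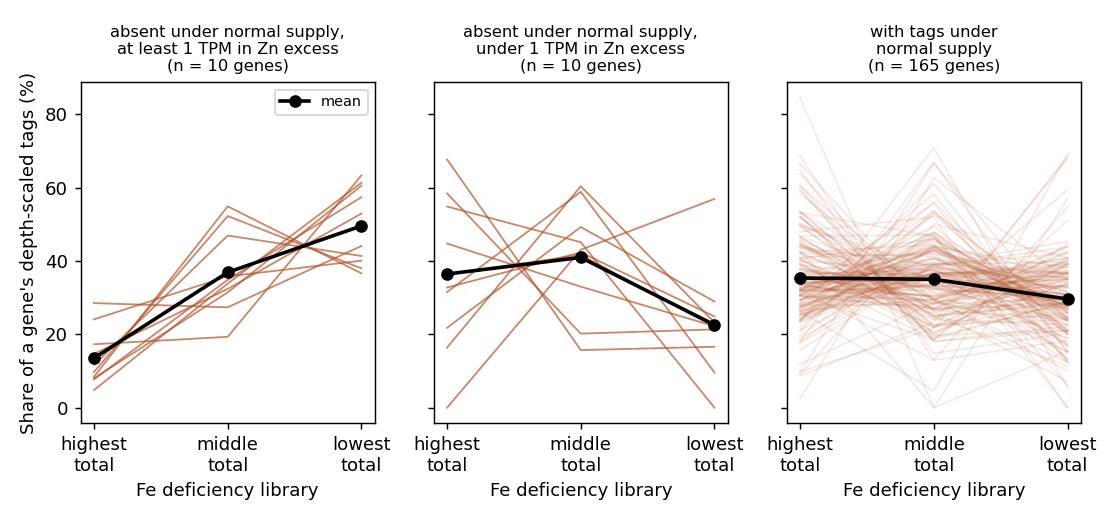
Share of the depth-scaled tags of a gene (%) in each of the 3 Fe deficiency libraries, ordered by library total, for genes whose tags per library could be solved. Thin lines join the shares of 1 gene and black points are means, which are 13.5%, 36.9% and 49.6% in the left panel, 36.5%, 41.0% and 22.6% in the middle panel and 35.4%, 35% and 29.6% in the right panel.

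Under Zn excess the library totals are close to each other and most sums have several solutions. Bra015328 had 1 solution, with 38, 0 and 2 tags in the libraries of highest, middle and lowest total, so 95.0% of its depth-scaled Zn excess value came from 1 replicate. In Bra000363 the Zn excess library with the highest total held 73 to 93 of 153 tags over the 5 solutions, and in Bra032234, chosen after its values were seen, it held 43 to 53 of 86. In Bra040302 the library with the lowest total held the most, 53 to 65 of 130. Also named after their values were seen, Bra003055 (57 to 77 of 135 tags) and Bra017599 (18 to 23 of 31) had the most in that of highest total. In Bra004086 and Bra014658, likewise named later, the bounds of the leading libraries overlapped. The genes with a settled leading library were thus uneven between the Zn excess replicates too. All of them but Bra040302 were led by the library of highest total.

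Among genes with a few tags under normal supply, 3 more had the same on and off form, with at least 1 TPM under Zn excess and at most 2 tags over each of Zn deficiency, Cd exposure and normal supply. These were Bra014659, Bra029228 and Bra032634, chosen after their values were seen. Bra014659 had 8.47 TPM under Fe deficiency, 12.1 TPM under Zn excess, 0 under Zn deficiency and Cd exposure and 0.112 TPM under normal supply (2 tags, both in 1 library). Bra029228 had fractional tags, so its tags may be shared with a similar gene.

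The contrasts among Zn deficiency, Zn excess and Cd exposure hold neither Fe deficiency nor normal supply, and the rule did not use them except through the mean of 5 TPM. A difference of 1 on this scale needs at least 1 TPM in 1 of the 3 conditions, which 226 of the 255 genes and 8449 of all 18376 genes under 5 TPM had. Of the 226 genes, 44 were at least 1 higher under Zn deficiency than under Zn excess (19.5%, against 3.02% of the 8449) and 30 were at least 1 lower (13.3%, against 1.79%). Against Cd exposure, 66 were at least 1 higher under Zn deficiency (29.2%, against 7.07%) and 46 under Zn excess (20.4%, against 3.69%). The opposite direction was rare: 4 genes were lower under Zn deficiency than under Cd exposure (1.77%, against 1.63%) and 1 was lower under Zn excess (0.442%, against 1.12%). The shares of genes higher than under Cd exposure, and of both directions between the Zn conditions, were thus above those of all low-level genes, while the share lower under Zn deficiency than under Cd exposure was near that of all low-level genes and the share lower under Zn excess was below it. The median difference was 0.63 for Zn deficiency minus Cd exposure, against 0.16 over the 8449 genes, 0.39 for Zn excess minus Cd exposure, against 0.15, and 0.33 for Zn deficiency minus Zn excess, against 0.01. These are counts and medians by size with 1 sample per condition and no test. In the genes with solved tags, 27 were higher under Zn deficiency than under Zn excess, and 45 were when the genes were chosen again without the normal supply library of lowest total.

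**Figure D4:**
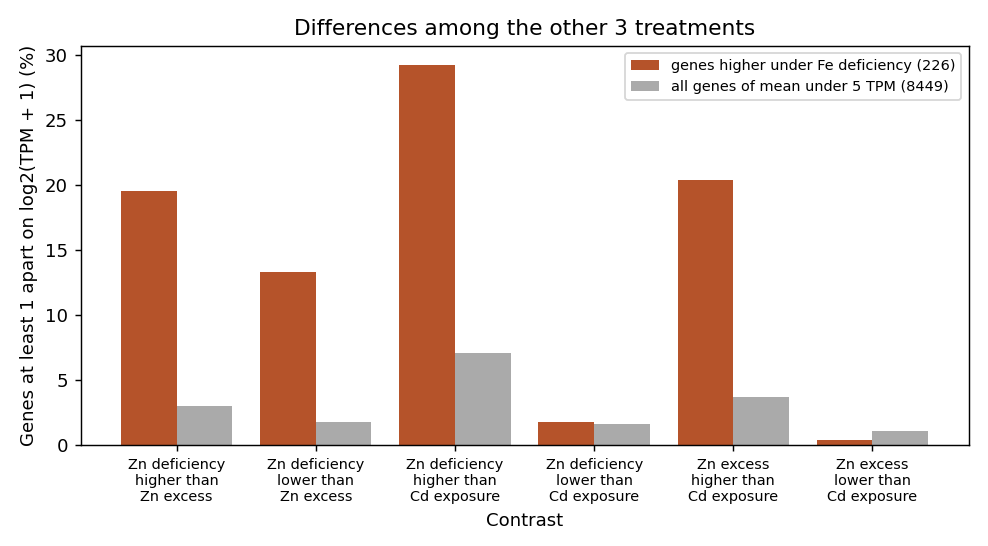
Percentage of genes at least 1 apart on the log2(TPM + 1) scale in each contrast and direction, for 226 of the genes higher under Fe deficiency and for all 8449 genes with a mean under 5 TPM, both with at least 1 TPM in 1 of the 3 conditions. The tallest pair is Zn deficiency higher than Cd exposure, 29.2% and 7.07%.

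The spread between replicates was compared separately, with no limit on the size of a difference. With the bounds of the tags in each library, every Zn deficiency library lay above every Cd exposure library in 22 of 172 resolved genes (12.8%, against 4.69% of all resolved low-level genes), and the reverse held in 6 (3.49%, against 5.53%). Every Zn excess library lay above every Cd exposure library in 17 of 170 (10%, against 2.15%), and the reverse held in 3 (1.76%, against 4.02%). Between the Zn conditions, 9 of 166 were higher under Zn deficiency in every library (5.42%, against 2.42%) and 11 under Zn excess (6.63%, against 1.17%). The bounds take the least favourable solution, and sums over 160 tags were not resolved, so a gene outside these counts is not shown to overlap.

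By these contrasts 24 genes were at least 1 higher under Zn excess than under both Zn deficiency and Cd exposure (10.6% of 226, against 0.781% of 8449). They include the 11 genes above. Their median was 4.22 TPM under Fe deficiency, 0 TPM under Zn deficiency, 6.07 TPM under Zn excess, 0.0586 TPM under Cd exposure and 0.0981 TPM under normal supply, and 14 of the 24 were at 0 under Zn deficiency. Not all were silent elsewhere: Bra012021, chosen after its values were seen, had 6.47 TPM under Fe deficiency, 3.10 TPM under Zn deficiency, 8.28 under Zn excess, 2.26 under Cd exposure and 1.73 under normal supply. In the 11 solved genes of this group that had tags under normal supply, the Fe deficiency library with the highest total also held the lowest mean share, 26%.

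A second group of 32 genes was at least 1 higher under Zn deficiency than under both Zn excess and Cd exposure (14.2%, against 1.99%). Their median was 5.75 TPM under Fe deficiency, 4.30 TPM under Zn deficiency, 0.919 under Zn excess, 0.652 under Cd exposure and 1.35 under normal supply. Bra020731 had the highest Zn deficiency value of the 255 genes, 9.79 TPM (interval 8.38 to 11.4), beside 8.71 TPM under Fe deficiency, 2.81 under Zn excess, 0.753 under Cd exposure (0.400 to 1.29) and 1.85 under normal supply. Its Zn deficiency minus Cd exposure difference, 2.62, was the largest. Bra033324 had the largest difference between the Zn conditions, with 5.51 TPM under Zn deficiency and 0.515 TPM under Zn excess (log2 difference 2.10), and Bra040141, which had fractional tags, was next with 5.22 and 0.718 TPM (1.86).

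For this group the spread between the Zn deficiency replicates was largely unknown, since those tags were solved in 1 of the 32 genes. Under Fe deficiency, in the 23 solved genes, the libraries of highest, middle and lowest total held mean shares of 37.3%, 36.0% and 26.6%. Single genes could be uneven. The tags of Bra033324 under normal supply were 5, 5 and 24 in the libraries of highest, middle and lowest total, and under Zn excess all 9 came from 1 library. Its 93 Zn deficiency tags had only 2 solutions, over which single libraries ran from 0.348 to 13.8 TPM. Its Zn deficiency value of 5.51 TPM was thus a mean of uneven replicates. Over the 25 genes of the group solved under normal supply, the library with the lowest total held a mean of 47.8% of the depth-scaled tags and was the highest of the 3 in 18. The same library held 40.2% in the 179 of the 255 genes that were solved and had tags there, against 33.0% in other low-level genes of similar tag number.

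Another group of 15 genes was at least 1 higher under both Zn conditions than under Cd exposure without differing by 1 between them (6.64%, against 1.33%). Their median was 5.90 TPM under Fe deficiency, 4.32 TPM under Zn deficiency, 3.10 under Zn excess, 0.466 under Cd exposure and 1.79 under normal supply. Bra018160 had 4.27 TPM under Fe deficiency, 6.78 TPM under Zn deficiency (interval 5.56 to 8.07), 6.04 under Zn excess, 0.348 under Cd exposure (0.127 to 0.755) and 1.15 under normal supply. Its counting intervals under the Zn conditions and Cd exposure were far apart, but over the solutions a Zn deficiency library could hold from 0 to 15.3 TPM, so the replicates were not resolved. In the 14 solved genes of this group the Cd exposure library with the middle total held a mean of 57.0% of the Cd tags.

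**Figure D5:**
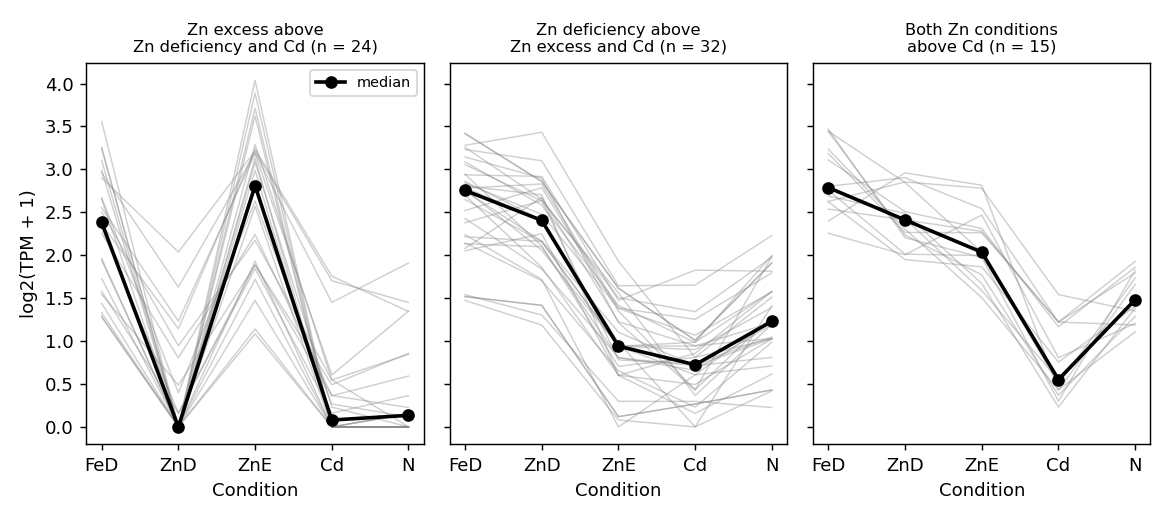
log2(TPM + 1) in the 5 conditions (FeD, Fe deficiency; ZnD, Zn deficiency; ZnE, Zn excess; Cd, Cd exposure; N, normal supply) for the 24, 32 and 15 genes of the groups formed from Zn deficiency, Zn excess and Cd exposure. Grey lines are genes and black points medians, and in the left panel the Zn deficiency median is 0.

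The remaining genes either showed no such difference (142 genes) or differed in only some contrasts (42 genes). The 142 genes had medians of 4.25 TPM under Fe deficiency, 1.66 TPM under Zn deficiency, 1.38 under Zn excess, 1.22 under Cd exposure and 1.12 under normal supply. Compared with normal supply, which the rule used and which is low in these genes by choice, 192 of the 255 genes were less than 1 higher in each of the other 3 treatments. The same count was not made over all genes under 5 TPM. By the shares given next, most of those genes were also less than 1 higher, so this is not particular to the 255. At least 1 above normal supply lay 31 genes under Zn deficiency (12.2%, against 0.871% of all genes under 5 TPM), 35 under Zn excess (13.7%, against 0.577%) and 1 under Cd exposure (0.392%, against 0.196%). At least 1 below it lay 1 gene under Zn deficiency (0.392%, against 0.163%), 0 under Zn excess (against 0.25%) and 7 under Cd exposure (2.75%, against 0.468%). All of these share the normal supply table with the rule. In the genes with solved tags the Zn deficiency count was 21, and it was 52 without the normal supply library of lowest total and 32 without that of middle total. The Cd exposure count there was 0, and it was 2 to 5 without 1 library of Fe deficiency (highest total) or of normal supply (any). The genes passing under both Zn conditions were 3, Bra005572, Bra018160 and Bra036278, named after their values were seen.

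The gene above normal supply under Cd exposure was Bra001629, named after its values were seen, with 8.78 TPM under Fe deficiency, 0.861 TPM under Zn deficiency, 5.81 under Zn excess, 3.12 under Cd exposure (54 tags, 12, 28 and 14 in the 3 libraries) and 1.02 under normal supply. It was 1 of the 4 genes that were lower under Zn deficiency than under Cd exposure. The others were Bra035756 (0.642 TPM under Zn deficiency and 4.79 TPM under Cd exposure), Bra017184 (0.174 and 2.39 TPM) and Bra020675 (0.521 and 2.26 TPM), the last named after its values were seen. For Bra035756 the Zn deficiency libraries had 3, 3 and 5 tags and the Cd exposure libraries 34, 37 and 12, without overlap. In Bra017184 all 3 Zn deficiency tags came from 1 library.

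Cd exposure held its highest values for Bra023127 and Bra038099. Bra023127 had 6.71 TPM under Fe deficiency, 2.52 TPM under Zn deficiency, 2.53 under Zn excess, 5.38 under Cd exposure (interval 4.34 to 6.59) and 2.70 under normal supply. Its Cd exposure libraries had 31, 29 and 33 tags, against 16, 13 and 18 in the normal supply libraries, so the replicates were close and did not overlap. Normal supply is low in these genes by choice, so nothing is read from this contrast, and the difference was below 1 on the log2 scale. Bra038099 had 7.61, 4.15, 3.68, 4.86 and 3.20 TPM in the same order of conditions. The gene lower under Zn excess than under Cd exposure was Bra021770, with 0.458 TPM under Zn excess and 1.97 TPM under Cd exposure, from 5, 3 and 0 tags and 5, 16 and 13 tags per library, which overlap.

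Some of the 255 identifiers were not independent. Fractional tags, the form that tags divided among similar genes take, were found in at least 1 condition for 74 of them (29.0%, against 33.4% of all genes under 5 TPM). In 5 sets, holding 11 identifiers, the values were identical in all 5 conditions. Bra022605 and Bra022606, an example chosen after the values were seen, both had 9.28 TPM under Fe deficiency, 3.73 TPM under Zn deficiency, 0.919 under Zn excess, 1.37 under Cd exposure and 1.13 under normal supply. Which member of such a set was transcribed cannot be read from these tables. None of the 21 genes without tags under normal supply had fractional tags.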

How the data were processed

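Values were taken as the authors deposited them, 1 table per condition. Per the file headers each table gives estimated counts, as the number of clean tags, and TPM. The deposited TPM is tags scaled to the clean tags of each library, and the deposited tag counts are means over 3 libraries. For the mapper, the build and the gene models, names were not given in the sources used here. Genes missing from a table were set to 0.

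The 255 genes and all groups were chosen with earlier results of these data known. Differences are log2(TPM + 1), called at 1, with 1 sample per condition and no test. Library totals were solved from genes with 1 tag and refined by least squares. Tags per library were then solved exactly for sums of up to 160 tags from both columns (TPM tolerance 4e-07, plus rounding). Between 93.0% and 94.6% of low-level genes with whole sums had a solution, against 2.87% to 14.3% with totals moved by 0.5%. The procedure was also run on simulated libraries of whole tags, and the outcome is not given here. Named genes were the first 2 by size in each condition and contrast, by difference, and beside the limit, plus others marked as chosen later. Python 3.11.15, numpy 2.4.6, pandas 2.3.3 and scipy 1.17.1 were used. The planned gene lists by name could not be applied, since the identifiers carry no names.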

Additional observations from a re-analysis of the deposited data

How the results depend on the processing

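Counts by size moved with the settings, and 106 of 180 stayed within 1.5 times the value they were set against. That value was the reported count or, for runs with a library left out, the count among genes with solved tags. The 180 include a setting that could not move any count, that of at least 10 tags more under Fe deficiency. The 255 genes are 0.874% of all 29183 listed genes. The share was 2.11% with a pseudocount of 0.5, 0.36% with a pseudocount of 2, 0.363% for a mean under 2 TPM, 1.34% for a mean under 10 TPM, 0.559% (163 genes) with size factors and 0.206% at a log2 difference of 1.5. No tag under normal supply, at least 1 above it under Zn deficiency, Zn excess and Cd exposure, and under Fe deficiency alone were reported for 21, 31, 35, 1 and 192 genes. These were 91, 122, 95, 21 and 405 with a pseudocount of 0.5, 9, 5, 16, 0 and 85 with a pseudocount of 2, 10, 1, 14, 0 and 45 at 1.5, and 15, 8, 14, 0 and 84 for a mean under 2 TPM. A mean under 10 TPM gave 63 under Zn deficiency, and size factors gave 2 under Cd exposure and 112 under Fe deficiency alone.

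For Zn deficiency minus Zn excess higher and lower, Zn deficiency minus Cd exposure higher and lower, and Zn excess minus Cd exposure lower, the reported counts are 44, 30, 66, 4 and 1. They were 95, 57, 153, 12 and 8 with a pseudocount of 0.5, 10, 16, 23, 2 and 0 with a pseudocount of 2, 2, 13, 9, 1 and 0 at 1.5, and 12, 12, 17, 0 and 1 for a mean under 2 TPM. The 46 genes higher under Zn excess than Cd exposure are 0.158% of all listed genes, and in the same order of settings the share was 0.356%, 0.0651%, 0.0548% and 0.0445%, with 0.25% for a mean under 10 TPM. That limit gave 77 and 132 higher under Zn deficiency than Zn excess and Cd exposure, and 2 lower for Zn excess minus Cd exposure. Size factors gave 27 higher under Zn deficiency than Zn excess and 0 lower for Zn excess minus Cd exposure. Genes without fractional tags gave 26 and 43 higher under Zn deficiency than Zn excess and Cd exposure, and 2 lower than Cd exposure. Each setting changes which genes are in the list, and beyond that the cause was not tested. Requiring at least 10 tags more under Fe deficiency than normal supply changed no count and could not have. The rule already needs a rise of at least 1 TPM, which is more than 10 tags at this depth. Counting identical genes once gave 249 genes. This setting and the bounds per library were chosen after seeing the data. Leaving out libraries where tags could be recovered was planned, and requiring 1 solution under Fe deficiency and normal supply was added later.

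Choosing the genes again from the genes with solved tags under Fe deficiency and normal supply gave 175 with all libraries and 173 to 237 with each Fe deficiency or normal supply library left out in turn, of which 20 to 38 were without tags under normal supply (20 with all libraries), 18 to 52 (21), 26 to 42 (32) and 0 to 5 (0) at least 1 above it under Zn deficiency, Zn excess and Cd exposure, and 126 to 171 (125) under Fe deficiency alone. Higher and lower, the ranges were 20 to 45 (27) and 23 to 27 (25) for Zn deficiency minus Zn excess, 33 to 58 (39) and 2 to 3 (2) for Zn deficiency minus Cd exposure, and 35 to 44 (36) and 0 to 2 (1) for Zn excess minus Cd exposure. The last was 0 without the Fe deficiency library of lowest total, and 2 without either other Fe deficiency library or the normal supply library of middle or lowest total. Genes enter and leave the list in these runs. Without the normal supply library of lowest total 52 genes were higher under Zn deficiency than normal supply, 45 were higher under Zn deficiency than Zn excess and 38 had no tag under normal supply. Without the normal supply library of middle total these were 32, 23 and 36. No paired analysis was possible because a condition has 1 mean table with no replicate numbers. Depth limits genes near 0, where 3 tags are 0.170 to 0.174 TPM.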

Other observations

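Over all 29183 genes, 12 had at least 10 tags under both Fe deficiency and Zn excess and no tag in the other 3 conditions, and 9 of them belong to the 255. The other 3 are Bra004609, Bra010969 and Bra032633. Whether such a gene belongs to the 255 is nearly fixed by the rule, which used Fe deficiency and normal supply, so nothing is read from the 9. No other pair of conditions had more than 2 such genes: Fe and Zn deficiency had 2 (Bra009465 and Bra013132), and the remaining 8 pairs had 0. At 30 tags in both, Fe deficiency and Zn excess had 8 and every other pair 0. For single conditions with at least 10 tags and none elsewhere, the numbers were 1 for Fe deficiency, 10 for Zn deficiency, 4 for Zn excess, 0 for Cd exposure and 1 for normal supply. These counts were made after the on and off form had been seen. They use tags summed over 3 libraries, which can come largely from 1 replicate, as in Bra015328 under Zn excess (38, 0 and 2 tags).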
